A study of Mus musculus with 2 samples.

Results

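The guanylate-binding proteins and interferon transcription factors examined here are 9 genes, picked by symbol from the 24532 genes of the expression table: Gbp2, Gbp2b, Gbp3, Gbp7, Irf1, Irf9, Stat2, Oasl2 and Psmb8. They were measured by RNA-seq in mouse E14 embryonic stem cells (ESCs), an established line carrying wild-type Sox2, and in E14-Sox2TA/WT cells (labelled as the Sox2 T258A mutant), in which 1 Sox2 allele carries T258A, a threonine-to-alanine change. Each genotype had 1 library, so no difference below has a replicate check and no test between genotypes was possible. The mutant cells were grown from single cells after CRISPR/Cas9 editing, and the number of clones behind the library is not given in the sources used here. The study's methods say that E14 cells were kept in serum with leukemia inhibitory factor, whereas the selected clones were normally kept in the same medium plus Mek and Gsk3 inhibitors, and these were withdrawn ahead of experiments. The effect of the allele thus cannot be told apart from that of cloning or of earlier culture.

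Interferons signal through cell-surface receptors and Jak kinases to Stat factors. Stat2 and Irf9 belong to the complex that binds the interferon-stimulated response element (ISRE), and the gamma-activated site (GAS) is the other element known from interferon targets. Irf1 is itself a target of this pathway and binds ISRE-like sequences. The guanylate-binding proteins (Gbp) are large GTPases of host defence and are among the best-known targets of interferon gamma. ESCs are known for a weak interferon response.

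The 4 Gbp members lie side by side on chromosome 3, and their promoters are shown because these genes differed together. Sequences are the 150 bases before the transcription start in RefSeq (GRCm38.p6, plus strand, 5′ to 3′). Capitals mark matches to the ISRE core (GAAA, any 2 bases and GAAA again, which reads TTTC, any 2 bases and TTTC on the opposite strand) or to the GAS core TTCNNNGAA.
Gbp7, chr3:142530186-142530335: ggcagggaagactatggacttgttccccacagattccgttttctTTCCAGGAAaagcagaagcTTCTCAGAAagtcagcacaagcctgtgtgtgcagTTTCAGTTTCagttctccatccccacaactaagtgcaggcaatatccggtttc
Gbp3, chr3:142559894-142560043: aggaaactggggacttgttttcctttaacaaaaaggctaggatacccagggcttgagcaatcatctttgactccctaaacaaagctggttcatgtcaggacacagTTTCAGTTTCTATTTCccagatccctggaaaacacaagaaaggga
Gbp2b, chr3:142594697-142594846: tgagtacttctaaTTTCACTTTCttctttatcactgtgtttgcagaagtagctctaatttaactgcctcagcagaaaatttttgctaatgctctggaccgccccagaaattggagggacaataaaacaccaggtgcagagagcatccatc
Gbp2, chr3:142620513-142620662: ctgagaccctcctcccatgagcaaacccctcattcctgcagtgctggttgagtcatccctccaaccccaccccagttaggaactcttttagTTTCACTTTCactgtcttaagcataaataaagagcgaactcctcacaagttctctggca

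The promoters of Irf1 and Psmb8, each with 1 match to the GAS core and none to the ISRE core, are given in the same way for contrast.
Irf1, chr11:53769864-53770013: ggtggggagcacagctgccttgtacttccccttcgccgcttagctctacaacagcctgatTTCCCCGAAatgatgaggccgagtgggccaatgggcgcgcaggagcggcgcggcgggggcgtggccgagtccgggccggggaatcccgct
Psmb8, chr17:34198045-34198194: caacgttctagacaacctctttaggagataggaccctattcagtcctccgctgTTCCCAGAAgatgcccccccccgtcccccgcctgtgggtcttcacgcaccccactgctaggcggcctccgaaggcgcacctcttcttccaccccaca

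Read counts summed to 60263536 in E14 and 44609228 in E14-Sox2TA/WT cells. Values are given as TPM, a unit that scales reads to transcript length and to the library, together with the reads behind them. The ratio is that of TPM in E14-Sox2TA/WT over E14, and its 95% interval is the exact Clopper-Pearson interval of the read counts, which covers counting error only. A gene is called higher or lower when its TPM was 10 or more in either library and the ratio exceeded 2-fold. Sox2 itself had a TPM of 372.5 in E14 and 274.2 in E14-Sox2TA/WT cells, and the table cannot show the edit. All 9 listed markers of pluripotent cells were well expressed in both libraries (lowest for Sall4, at a TPM of 84.9 in E14), and only Nanog of these was called lower (log2 ratio -1.07).

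Expression of the Gbp members was low in E14 and higher in E14-Sox2TA/WT cells. In E14, Gbp2 stood at a TPM of 1.80 (140 reads), and in E14-Sox2TA/WT cells at 30.6 (1584 reads), with a log2 ratio of 4.08 (3.83 to 4.34). Gbp2b, the mouse gene also named Gbp1, had a TPM of 0.916 (82 reads) and 23.4 (1394 reads), a 25.6-fold difference with a log2 ratio of 4.68 (4.35 to 5.02). Both genes had more reads in the mutant although that library was the shallower one. Gbp3 had the highest ratio of the 9 genes, from a TPM of 0.103 (10 reads) to 4.33 (238 reads), with a log2 ratio of 5.40 (4.49 to 6.47), although its TPM rather than its reads carried part of this, as the median-of-ratios scaling of its reads gave 5.13. Gbp7 had a TPM of 0.111 (20 reads) and 1.70 (201 reads), with a log2 ratio of 3.93 (3.26 to 4.67). The intervals of Gbp3 and Gbp7 are wide because so few reads were counted in E14. That of Gbp7 overlapped the intervals of the other 3 genes, so its ratio was not told apart from theirs at this depth.

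**Figure D1:**
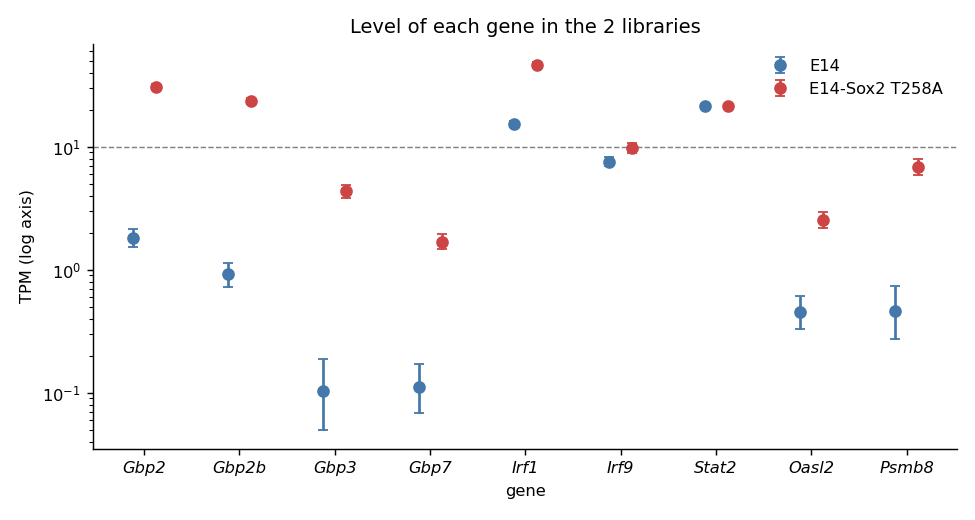
TPM (log axis) of the 9 genes in the E14 library (blue) and the E14-Sox2 T258A library (red), with bars for the exact 95% Poisson interval of the reads and a dashed line at a TPM of 10. The 4 Gbp genes, Oasl2 and Psmb8 lie well apart between the libraries, whereas Stat2 lies at 21.6 and 21.3.

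Summed over the 4 Gbp members, 252 reads in E14 stood against 3417 reads in E14-Sox2TA/WT cells. Gbp2 and Gbp2b supplied 92.7% of their summed TPM in E14 and 90.0% in the mutant. Shared sequence between the paralogs was limited. Of the distinct 50-base stretches in the transcripts of Gbp2, 2.03% also occur in another gene, and the figure was 1.84% for Gbp2b and 3.75% for Gbp3. It was 12.7% for Gbp7, mostly shared with the gene model Gm43802 (10.5%), and for this gene the counting of shared reads, which is not stated, leaves the level uncertain.

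Genes that flank the cluster did not share its difference. In order along chromosome 3, Pdlim5 (a PDZ and LIM domain protein) had a TPM of 29.0 and 29.1 (log2 ratio 0.00, -0.07 to 0.07), a sign that changed with the scaling of the libraries. The Gbp family member Gbp5 followed with 2 reads and 0 reads, too few for a ratio. Then came Gbp7, Gbp3, Gbp2b and Gbp2 (142530336 to 142638008 in all, GRCm38). Kyat3, an aminotransferase gene on the far side, had a TPM of 32.6 and 23.3 (log2 ratio -0.49, -0.59 to -0.38).

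The other Gbp genes form a cluster on chromosome 5 and were mostly close to silent. Gbp4 was also higher in the mutant, with 8 reads in E14 and 119 in the mutant (TPM 0.0544 and 1.26, log2 ratio 4.53). Gbp9 had similar reads in both, 94 and 98 (TPM 0.819 and 1.27, log2 ratio 0.63, 0.21 to 1.06), and Gbp8 had 10 and 13 reads. Gbp6, Gbp10 and Gbp11 had no reads in E14 and 3, 2 and 4 reads in the mutant. Of the 11 family members, 6 reached a TPM of at least 1 in a library, and 5 of these were more than 2-fold higher and none more than 2-fold lower, beside 6.45% higher and 9.95% lower among all 13729 genes at that filter. Of the 5, 4 are the members chosen with this contrast known, and all but Gbp2 reached a TPM of 1 only in the mutant.

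Among the transcription factors, Irf1 was called higher, and Irf9 and Stat2 of the ISRE-binding complex were within 2-fold. Irf1 went from a TPM of 15.3 (1032 reads) in E14 to 46.5 (2097 reads) in E14-Sox2TA/WT cells, a 3.03-fold difference with a log2 ratio of 1.60 (1.49 to 1.71). Irf9, which contacts DNA in the complex, had a TPM of 7.58 (589 reads) and 9.78 (508 reads), with a log2 ratio of 0.37 (0.19 to 0.54), short of both the filter and 2-fold. Stat2 was level, with a TPM of 21.6 (2985 reads) and 21.3 (1977 reads), and the interval of its log2 ratio of -0.02 included no change (-0.10 to 0.07).

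The median log2 TPM ratio of all 9094 genes past the filter was 0.08, and with FPKM, the other length-scaled unit deposited, it was -0.06. A shift of -0.14 therefore separates these scales. Relative to the median of all genes, the log2 ratio was 1.52 for Irf1, 0.28 for Irf9 and -0.10 for Stat2. Irf1 and Oasl2 stand in the study's list of genes putatively repressed by O-GlcNAc on Sox2. The list also required a Sox2 chromatin immunoprecipitation signal in the gene region and a response to streptozotocin, both from other data sets. Its RNA-seq part drew on these same libraries, so the direction of both genes here adds no independent evidence.

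Oasl2 and Psmb8 were low in E14 and higher in E14-Sox2TA/WT cells. Oasl2, an antiviral gene of the oligoadenylate synthetase family, had a TPM of 0.453 (45 reads) and 2.55 (170 reads), a 5.64-fold difference with a log2 ratio of 2.50 and a lower bound of 2.01. Psmb8, which encodes the inducible catalytic subunit that replaces Psmb5 in the immunoproteasome, had a TPM of 0.464 (18 reads) and 6.83 (177 reads), a 14.7-fold difference with a log2 ratio of 3.88 (3.18 to 4.67). Even so, the TPM of Psmb8 was 0.211% of that of Psmb5 in E14 and 3.22% in the mutant. Transcripts of the constitutive subunit thus made up nearly all of the pair in both libraries, and protein was not measured.

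**Figure D2:**
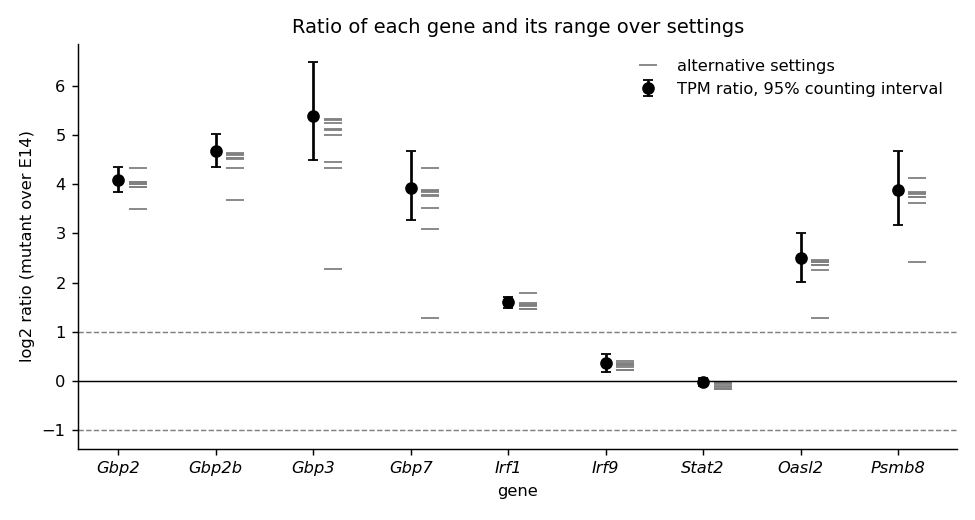
Log2 ratio (E14-Sox2TA/WT over E14) of the 9 genes, with black points and bars for the TPM ratio and its 95% counting interval, grey dashes for the value under each alternative setting, and dashed lines at 2-fold. The 4 Gbp genes, Irf1, Oasl2 and Psmb8 stay above 2-fold in every setting shown, and Irf9 and Stat2 stay within it.

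Of the 9 members, 3 were called higher (Gbp2, Gbp2b and Irf1) and 0 lower, beside 4.17% of the 9094 genes past the filter called higher and 4.07% called lower (8.24% in either direction). Since the members were chosen with this contrast known, nothing is read from the difference in shares. The filter was passed by 4 members, of which Irf1 and Stat2 passed in both libraries, while Gbp2 and Gbp2b passed only through the library in which they are high. Without the filter 7 of 9 were more than 2-fold higher, each with its whole counting interval past 2-fold. The median log2 ratio over all 9 members was 3.88.

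The measured neighbours of Psmb8, and the paralog beside Oasl2, were lower in the mutant. Psmb8 lies on chromosome 17 (34198195 to 34201454) in the major histocompatibility complex, between peptide transporter genes. Psmb9, another inducible proteasome subunit, stood at a TPM of 7.92 (202 reads) in E14 and 3.74 (64 reads) in the mutant, with a log2 ratio of -1.08 (-1.51 to -0.67). The transporter gene Tap1 had 1488 and 593 reads (-0.75, -0.89 to -0.61), and Tap2 had 540 and 314 reads (-0.21, with an upper bound just under 0). Oasl1, the paralog next to Oasl2 on chromosome 5, had 104 and 33 reads, with a log2 ratio of -1.07 (-1.69 to -0.50). On the other side of Oasl1, 2210016L21Rik was nearly level (1430 and 1036 reads, log2 ratio 0.11). Psmb8 and Oasl2 thus differed in direction from the nearby genes of their own families, Psmb9 and Oasl1.

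Around Irf9 and Stat2 the neighbours were mixed. Beside Irf9 on chromosome 14, the proteasome activator gene Psme2 had a log2 ratio of 0.67, the ubiquitin ligase gene Rnf31 had -0.12, the importin gene Ipo4 had 0.38, and Rec8, a meiotic cohesin gene, was called lower with a TPM of 74.0 and 29.1 (-1.35, -1.44 to -1.26). Beside Stat2 on chromosome 10, Pan2 (-0.07) was nearly level and the cytokine subunit gene Il23a was lower with 321 and 55 reads (-1.97, -2.42 to -1.56) at a TPM under 10. Apof overlaps the start of Stat2 and had 22 and 21 reads. Of the 2 genes examined on each side of Irf1, only Slc22a5 had more than 3 reads. This carnitine transporter gene had a log2 ratio of -0.38 (-0.56 to -0.20).

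**Figure D3:**
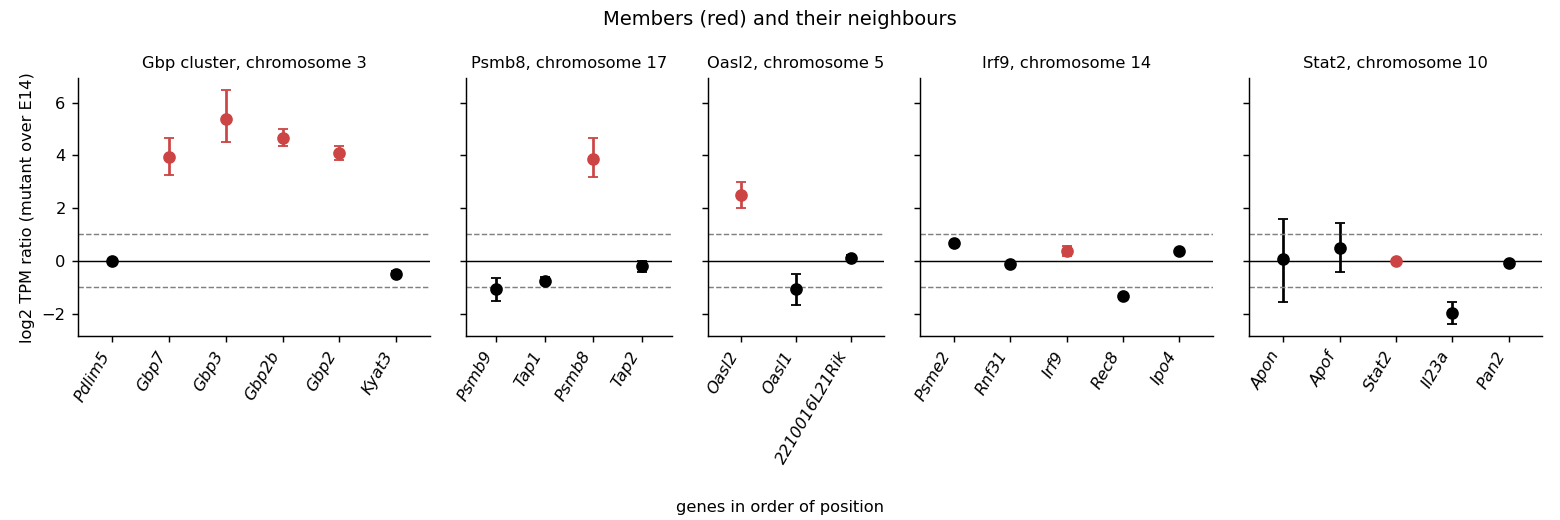
Log2 TPM ratio (E14-Sox2TA/WT over E14) of members (red) and up to 2 genes on each side (black), in order of position, for genes with more than 3 reads in both libraries (Irf1 and its neighbours are not drawn), with 95% counting intervals and dashed lines at 2-fold. The Gbp genes lie at 3.93 to 5.40 between Pdlim5 at 0.00 and Kyat3 at -0.49, and Psmb8 lies at 3.88 between Tap1 at -0.75 and Tap2 at -0.21.

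The pathway upstream of these genes was examined next, using lists written from general knowledge. Of 18 interferon genes, 17 had no read in either library, which allows per gene up to 0.0498 CPM (reads scaled to the library total) in E14 and 0.0673 CPM in E14-Sox2TA/WT cells, and Ifnz had 1 read in each. The receptor and kinase genes were expressed in both libraries, and none of the 9 differed more than 2-fold. The type I receptor chain Ifnar1 had a log2 ratio of 0.39 and its partner Ifnar2 had -0.69, while the type II chains Ifngr1 and Ifngr2 had 0.45 and 0.40. The kinases Jak1, Jak2 and Tyk2 had 0.39, 0.37 and 0.37. Among the negative regulators, the feedback inhibitors Socs1 (-0.89) and Socs3 (-0.52) were within 2-fold, and Usp18 had 34 and 11 reads (-1.01), with an interval from -2.14 to just above 0. The phosphatase genes Ptpn11 (0.55) and Ptpn1 (0.46) were on the other side of 0, also within 2-fold. Ptpn2, a phosphatase of Jak and Stat proteins, was called lower (-1.04, -1.10 to -0.97). The call of Ptpn2 was lost with counts scaled to the library total (-0.55).

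The other members of the Irf and Stat families did not follow a common direction. Irf2 had 16 and 109 reads (log2 ratio 3.35, 2.58 to 4.21) and Irf3 had a TPM of 15.8 and 20.8 (0.40). Irf8, a factor of the myeloid lineage, was lower with 722 and 131 reads (-1.86, -2.14 to -1.59), as was Irf5 with 439 and 127 reads (-1.23, -1.53 to -0.94), both at a TPM under 10. Stat3, which transmits the leukemia inhibitory factor signal, had a TPM of 48.7 and 56.1 (0.20), and Stat6 had 25.8 and 21.0 (-0.30). Stat5a was lower at a low level, with 459 and 104 reads (-1.60, -1.92 to -1.29).

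The remaining target lists split as well. In the oligoadenylate synthetase family, 8 of 13 genes reached a TPM of at least 1 in a library, and Oasl2 was the only one of these more than 2-fold higher while 6 were more than 2-fold lower (6.45% and 9.95% of all genes at that filter). Oasl2 reached a TPM of 1 only in the mutant and most of the 6 only in E14, so nothing is read from these shares. Oas1a had 563 and 67 reads (TPM 9.46 and 1.67, log2 ratio -2.51, -2.89 to -2.14), Oas1g had 252 and 28 reads (-2.62) and Oas1d had 57 and 4 reads (-3.24). The copies of Oas1 are similar in sequence, so reads may be split among them. Among the immunity-related GTPases, Irgm1 was higher in the mutant (23 and 300 reads, TPM 0.326 and 6.36, log2 ratio 4.29, 3.68 to 4.97), whereas Irgm2 (0.46) and Igtp (0.31) were within 2-fold.

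Of 32 widely used type I interferon targets, 8 passed the TPM filter and none of these 8 was called. Among them, the nuclear body gene Pml came closest to 2-fold (TPM 46.6 and 86.6, log2 ratio 0.89), the membrane protein gene Bst2 had 0.25 and the restriction factor gene Ifitm3 had -0.05. With a trend on GC content and length removed, Bst2 went to 0.67 and the sign of Ifitm3 changed. At a TPM of at least 1, 7 of 20 were more than 2-fold higher and 0 lower, beside the same 6.45% and 9.95% of all genes. Most of the 7 reached a TPM of 1 only in the mutant, the library in which they are high. The list was also written with earlier results of these data known, so nothing is read from these shares. The 7 include the ubiquitin-like modifier Isg15, with 5 and 93 reads (5.10, 3.83 to 6.76), and the partners Parp9 (1.20) and Dtx3l (1.70). In the antigen presentation list, the inducible subunit Psmb10 (0.48) and the activator genes Psme1 (0.53) and Psme2 (0.67) were within 2-fold, as were B2m (0.25), H2-K1 (-0.60) and H2-D1 (-0.74), whereas the peptidase gene Erap1 had 65 and 365 reads (3.09, 2.70 to 3.49). The constitutive subunits Psmb5, Psmb6 and Psmb7 had -0.05, -0.24 and -0.11, and the trend on GC content and length turned their signs.

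**Figure D4:**
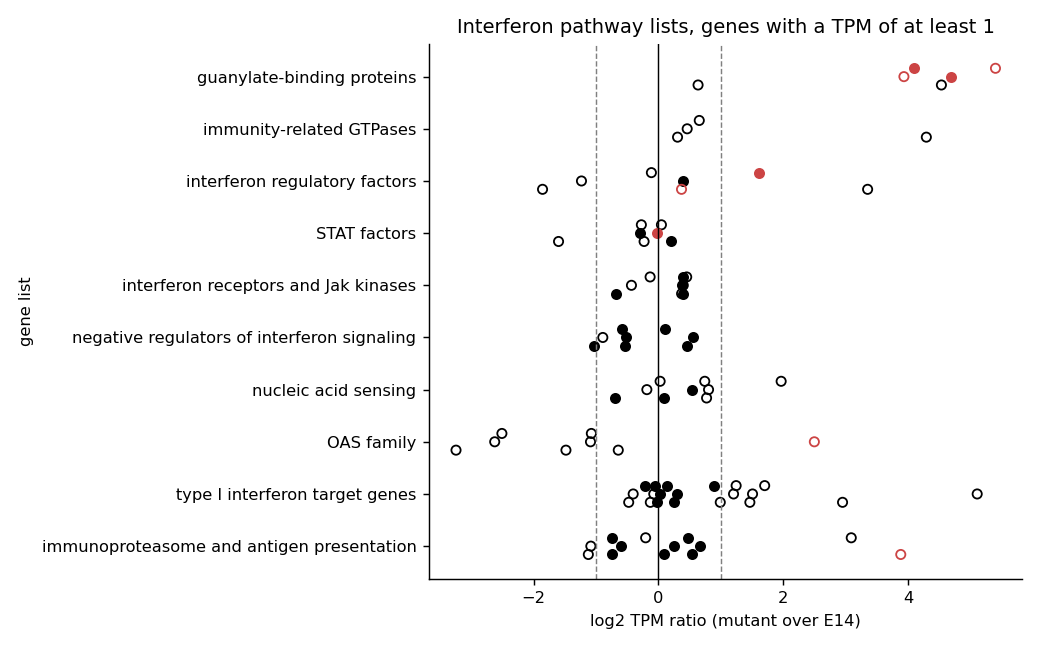
Log2 TPM ratio (E14-Sox2TA/WT over E14) of each listed gene with a TPM of at least 1 in a library, 1 row per list, with members in red, filled points for a TPM of at least 10 and dashed lines at 2-fold. Outside the members, filled points stay below 2-fold higher, and the open points spread from Oas1d at -3.24 to Isg15 at 5.10.

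Over the 133 pathway genes that are not members, 33 passed the filter, with 0 called higher and 1 called lower (Ptpn2), and their median log2 ratio was 0.10 beside 0.08 for all genes past the filter. At a TPM of at least 1, 82 of them remained, with 12 more than 2-fold higher and 12 more than 2-fold lower (14.6% each). Among all 13729 genes at that filter, 6.45% were higher and 9.95% were lower. Most of the 12 higher genes reached a TPM of 1 only in the mutant, and several of the 12 lower ones only in E14. The lists were also written with earlier results of these data known, so nothing is read from these shares. Outside the members, differences past 2-fold thus lay mostly below a TPM of 10, and they ran in both directions.

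Genes of other cell types were checked, because interferon targets are high in immune and stromal cells. Of 8 macrophage and blood cell markers, Ptprc, Adgre1, Lyz2 and Tyrobp had no read in either library, and the summed TPM of the list was lower in the mutant (53.5 in E14 and 12.1), nearly all from Cd68. Of 8 fibroblast markers, Postn, Dcn and Lum had no read, and the summed TPM was 49.8 in E14 and 19.5 in the mutant, mostly from Thy1 (40.1 and 11.4), although Col3a1 was higher in the mutant (15 and 151 reads) and Col1a2 had 43 and 109 reads. Aif1, on the macrophage list, had 0 and 8 reads, and Kdr, on the endothelial list, had 19 and 75 reads. Whether cells of these types had a part in the levels of the members was not tested. Of 5 endothelial markers, Emcn had no read, Cdh5 had 17 and 12 reads, and Tek had 883 and 326 reads. The summed TPM of this list was 109 and 48.2, nearly all from Pecam1. In a bulk library, a few cells at a high level and many cells at a low level cannot be told apart.

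Sequence cores known from interferon-responsive promoters were finally counted in windows from 250 bases before to 50 bases after the start, on both strands. All 9 members had a window. The ISRE core was found in 5 of them (Gbp2, Gbp2b, Gbp3, Gbp7 and Stat2), beside 3.99% of all 27025 genes with a window. It lay at -59 to -50 in Gbp2, at -137 to -128 in Gbp2b and at -53 to -44 in Gbp7, and 2 overlapping matches ran from -45 to -30 in Gbp3. In Stat2, the level gene, it lay farther out at -222 to -213. Among the 5 genes with the ISRE core, the Gbp genes are neighbouring paralogs. The members were also chosen with this contrast known, so nothing is read from the share with the core. The GAS core was found in Gbp7, Irf1 and Psmb8 (9.55% of all genes). The Sox core ATTGTT was found in 0 of 9 (12.2% of all genes). Nothing is read from the absence of the Sox core in so few genes. The windows cover only the start, whereas the study reported Sox2 binding signals in the gene regions of Irf1 and Oasl2. No match to 1 core overlapped a match to another.

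The ISRE core was also counted among the other pathway genes, as a description without a test. At a TPM of at least 1, 12 of these genes were more than 2-fold higher, and 9 of the 12 had a window. The core was present in 6 of the 9 (among them Isg15, Irgm1 and Irf2). It was also present in 3 of 8 that were more than 2-fold lower (Oas1a, Oas1g and Oas3) and in 12 of 50 within 2-fold. Over all genes with a window the share was 3.99%. Most of the 6 reached a TPM of 1 only in the mutant, and the lists were written with earlier results of these data known. Nothing is read from how these shares differ. The 3 lower genes are all of the Oas family, and Oas1a and Oas1g are similar copies. Gbp5, with next to no reads, also has an ISRE core at -165 to -156. The upstream bases of the Gbp members held 1 CpG site in Gbp2, 1 in Gbp2b, 0 in Gbp3 and 5 in Gbp7, beside a median of 6 over all promoters. Oasl2 also had 1, whereas Irf9 had 7, Psmb8 had 10, Stat2 had 14 and Irf1 had 25. These counts are for the first start listed, and the second starts held 1 in Gbp3, 1 in Irf9 and 35 in Irf1.

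**Figure D5:**
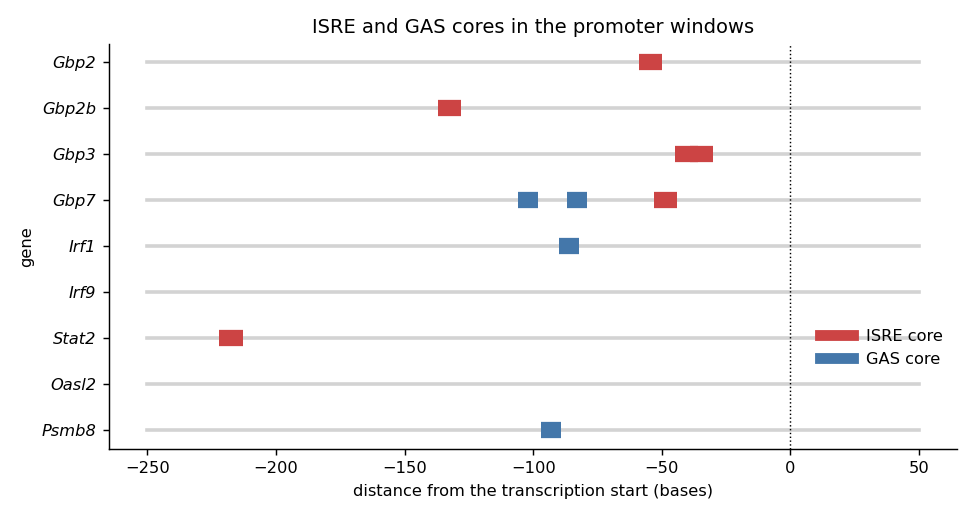
Position of ISRE cores (red) and GAS cores (blue) in the promoter windows of the 9 genes, as distance in bases from the transcription start, with grey lines for the window. The 4 Gbp genes and Stat2 hold the ISRE core, Gbp7, Irf1 and Psmb8 hold the GAS core, and Irf9 and Oasl2 hold neither. Second start sites of Gbp3, Irf1 and Irf9 held no match and are not drawn.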

How the data were processed

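Polyadenylated RNA of 2 cell lines, 1 library each, was sequenced with Illumina library protocols. The submitters' processing notes name bcl2fastq 2.20.0, Trimmomatic, HISAT2 2.1.0 and StringTie 2.1.3b. The authors deposited a gene table for mm10 (GRCm38) holding unnormalized whole-number read counts. The authors also deposited FPKM, scaled to transcript length and library size, and TPM, scaled to nearly the same sum in both libraries. How strand and multi-mapping reads were handled is not given in the sources used here. Whether the counts are direct or estimated from transcript coverage is not given either, and the counting intervals treat them as direct.

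The TPM ratio was computed without a pseudocount, with exact Clopper-Pearson intervals (95%) of the read counts placed on the TPM scale (SciPy 1.17.1). It was checked on simulated counts that held counting error only, without scaling to transcript length. That check cannot speak to spread between cultures or to counts estimated from coverage. A gene with 0 reads was set at a floor of 3 reads, so its fold is a lower bound. Intervals and floors cover counting error only. TMM (edgeR 4.0.16) and median-of-ratios scaling (DESeq2 1.42.0) served as alternatives. Positions came from the RefSeq annotation of GRCm38.p6, which held 24462 of 24532 gene IDs. Shared sequence, transcript length and GC content came from GENCODE M21 transcripts. The 9 members and the gene lists were chosen with earlier results of these data known. Named were the members, called genes, the Gbp, Irf and Stat families, receptors and kinases, Socs1, Socs3, Usp18, proteasome subunits, the 2 neighbours on each side, and the ends of lists without a call. Further genes (the Isg15, Irgm2, Igtp, Parp9, Dtx3l, Erap1, Bst2, Ifitm3, Pml, Ptpn1, Ptpn11, Psme1, B2m, H2-K1, H2-D1 and Oas genes and the cell type markers) were named after their values were seen. A result on 1 item is not reported here.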

Additional observations from a re-analysis of the deposited data

How the results depend on the processing

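No paired analysis was possible because each group had 1 library, and for the same reason no library could be left out. The number of members called higher (3) went to 7 with the TPM filter lowered to 1 and to 7 without a filter, which admit more genes by construction, and stayed within 1.5 times under the other alternatives run. The median log2 ratio of the members (3.88) went to 3.09 with a pseudocount of 0.1 and to 1.54 with a pseudocount of 1, which shrink low genes, and ran from 3.52 to 3.85 under the other scalings and the removed trend. The number of pathway genes called higher (0) went to 12, 5 and 23 with the filter at 1, at 5 and absent, and to 2 at 1.5-fold. The number called lower (1) went to 12, 5 and 21 at those filters, to 6 at 1.5-fold, and to 0 at 3-fold, with TMM, median-of-ratios or CPM scaling, and with the whole interval required past 2-fold. No member changed sign under any setting. The lowest value was 3.49 for Gbp2, 3.67 for Gbp2b, 2.27 for Gbp3, 1.28 for Gbp7, 1.46 for Irf1, 1.29 for Oasl2 and 2.42 for Psmb8. Scaling to CPM and correction for GC content and transcript length (20 bins each) were chosen after the data had been seen. At 10 to 20 reads in E14, depth limits the ratios of Gbp3, Gbp7 and Psmb8.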

Other observations

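Some interferon targets had reads in 1 library alone, and these also went in both directions. They were picked after their values were seen, and a fold against 0 reads is a lower bound set at the floor of 3 reads. Mx1, an antiviral GTPase, had 53 reads in E14 and 0 in E14-Sox2TA/WT cells, at least 11.8-fold lower. Ifi27 had 24 and 0 reads, at least 5.36-fold lower, and Irf7, the factor that amplifies type I interferon production, had 11 and 0 reads, at least 2.46-fold lower. Ifit3 had 0 and 20 reads, at least 9.95-fold higher, and the immunity-related GTPase gene Tgtp1 had 0 and 11 reads, at least 5.47-fold higher. None of these genes reached a TPM of 1 in either library.

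Gbp3 differed from the other members in how its TPM followed its reads. The ratio of TPM divided by the ratio of reads was 1.77 for Gbp3 and lay between 1.49 and 1.52 for the other members, beside a median of 1.49 over all genes past the filter. Its log2 TPM ratio of 5.40 is therefore higher than its reads alone would give.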
